A study of Rattus norvegicus with 6 samples.

Results

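The TGF-beta genes described here are the 3 ligands Tgfb1, Tgfb2 and Tgfb3, the receptors Tgfbr1, Tgfbr2 and Tgfbr3, and the latent TGF-beta binding proteins Ltbp1, Ltbp2, Ltbp3 and Ltbp4. They were chosen by name. A member counted as measured when a probe set of the array was annotated to that gene alone, which held for 9 of the 10. Tgfbr2, the type II receptor, was not analysed here. The 9 genes were read by 12 probe sets, among 14217 genes in all that had such a probe set. Each gene was represented by the probe set that was brightest on average (mean of log2 values), and the other probe sets of Tgfb2, Tgfbr1 and Tgfbr3 served as a check.

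The arrays measured RNA of rat Achilles tendons on post-natal day 7 (3 arrays) and post-natal day 1 (3 arrays). Each array carried RNA pooled from at least 2 animals, so the spread between arrays is that between pools. No treatment or genetic change is named for either age, and the sources used here do not give the animals' strain or sex. The unit is the deposited array intensity, on a linear scale, and changes are differences of log2(intensity + 1), day 7 minus day 1.

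TGF-beta ligands are made as large precursors. The cleaved propeptide stays bound to the ligand and keeps it latent. A latent TGF-beta binding protein is joined to the propeptide in the cell and anchors the complex to fibrillin microfibrils and fibronectin in the matrix. Ltbp1, Ltbp3 and Ltbp4 can make this bond, whereas Ltbp2 does not and is known as a microfibril protein. Freed ligand binds the type II receptor, which phosphorylates the type I receptor Tgfbr1, also called ALK5. That kinase in turn activates the transcription factors SMAD2 and SMAD3. Tgfbr3, betaglycan, presents ligand to the other receptors, TGF-beta 2 above all. In mouse embryos, loss of Tgfbr2 in limb mesenchyme, or of Tgfb2 together with Tgfb3, leaves the limbs without most tendons.

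Ltbp1 and Ltbp2 had the largest differences between the ages of all measured members, in opposite directions, and their promoters are therefore shown. Each sequence is the 250 bases before the gene's start in RefSeq on the rat assembly GRCr8, read 5′ to 3′ on the gene's strand. The Ltbp1 window lies at chr6:26177302-26177551 and the Ltbp2 window at chr6:110257299-110257548, both on the minus strand. Capitals mark CAGAC, a core sequence that SMAD proteins can bind, or its reverse complement GTCTG.
Ltbp1: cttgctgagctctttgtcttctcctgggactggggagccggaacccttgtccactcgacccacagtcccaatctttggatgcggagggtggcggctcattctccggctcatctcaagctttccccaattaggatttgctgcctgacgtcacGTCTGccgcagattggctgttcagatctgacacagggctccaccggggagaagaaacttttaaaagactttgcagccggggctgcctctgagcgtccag
Ltbp2: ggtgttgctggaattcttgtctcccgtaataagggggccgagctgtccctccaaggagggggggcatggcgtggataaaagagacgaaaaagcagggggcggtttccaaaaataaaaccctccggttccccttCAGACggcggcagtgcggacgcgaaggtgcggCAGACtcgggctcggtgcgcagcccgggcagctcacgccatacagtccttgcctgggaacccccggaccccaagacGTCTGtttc
The Ltbp1 window held 1 such match and the Ltbp2 window 3. Matches to this short word are common, and 42.9% of the 33469 promoter windows of the same length in the table held at least 1. The windows of the other 8 members, Tgfbr2 included, held 0. None of the 10 windows held TATAAA or its reverse complement TTTATA, which 12.9% of all windows held. The GC box GGGCGG or CCGCCC, a site of Sp1 family factors, occurred 3 times in the windows of Tgfbr1 and Ltbp4 and once in those of Tgfbr2, Tgfbr3, Ltbp2 and Ltbp3, against 30.5% of all windows with at least 1. These matches are descriptions of the letters only. The windows cover a single start for each gene.

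The arrays were checked against markers of the tissue before the members were compared. Tenomodulin, Tnmd, a membrane protein that marks tendon cells, read from 4925 to 6822 on day 7 and from 2279 to 4465 on day 1, so the label of tendon held on the arrays of both ages. Other tissues were present. The summed intensity of 19 skeletal muscle genes reached 42696 to 64137 on day 7, against 71611 to 90085 on day 1, and that of 14 adipocyte genes 3389 to 7325 on day 7, against 1696 to 1967 on day 1. For 11 cartilage genes the sums ran from 3003 to 5555 on day 7 and from 1093 to 2931 on day 1, and for 11 tendon genes from 48824 to 63402 on day 7 and from 28152 to 46908 on day 1. Col1a1 and Col1a2 were the brightest genes in the tendon sums, and the list did not move as 1. Of its 11 genes, 6 lay higher on all day 7 arrays than on all day 1 arrays (beside 14.0% of all genes). The 2 genes Chodl and Egr1 lay lower on all of them (beside 19.1%), and Scx and Tnc were among those that overlapped. The array of day 1 replicate 1 stood apart in keratins and other epidermal genes, 6 of which summed to 5621 there, against 155.1 to 387 on day 7 and 147 and 150.0 on the other day 1 arrays. No marker of these lists lay at the level of the negative control probe sets, which read 3.74 to 4.76, on every array. Single arrays did reach it, and Ucp1 of the adipocyte list read 4.58, 4.63 and 4.48 on day 1 and 4.48 on day 7 replicate 1. In such bulk RNA, fewer cells of a type and less RNA per cell cannot be told apart.

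None of the 9 measured members passed the test between the ages (limma, adjusted p under 0.05 over all 31042 probe sets), where 5.08% of all genes did. At an unadjusted p under 0.05 there were 4 members, Ltbp1 and Tgfb3 with higher values on day 7 and Ltbp2 and Tgfbr1 with lower values, beside 27.6% of all genes. The day 7 and day 1 arrays did not overlap for 3 members, beside 33.1% of all genes. The share without overlap, 3 of 9, was close to that of all genes. The median log2 change was 0.19 over the members and -0.01 over all genes. The members' median depended on single arrays, at 0.093 without day 7 replicate 1 and 0.34 without day 7 replicate 2. It was 0.12 with a pseudocount of 16, and -0.0034 and -0.10 with the array's skeletal muscle or tendon list median as a covariate.

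**Figure D1:**
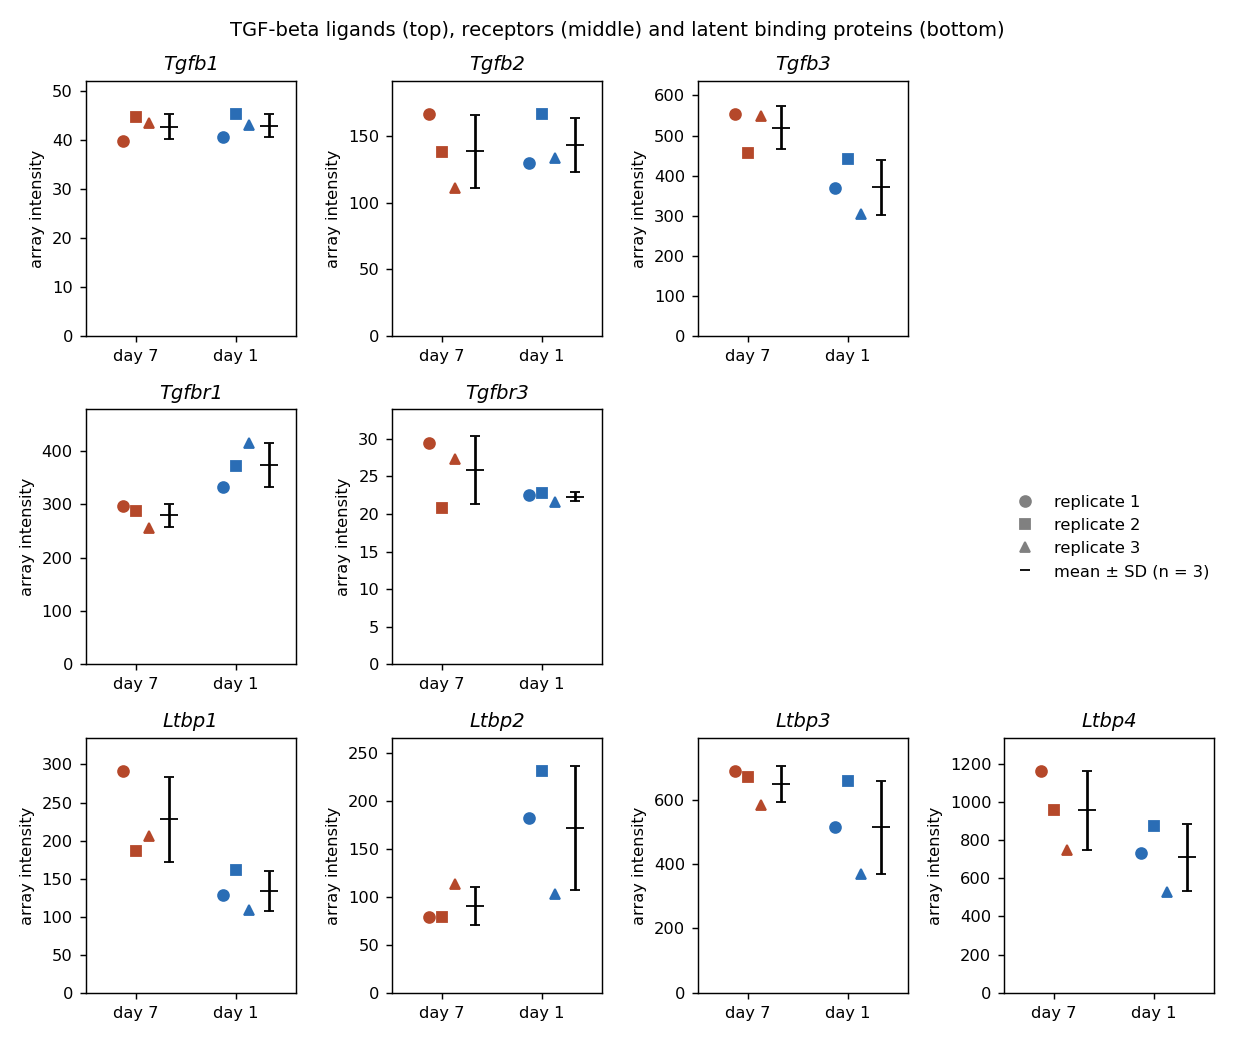
Array intensity (linear scale from 0) of each measured member on the 3 day 7 arrays (red, left) and the 3 day 1 arrays (blue, right), with the mean and SD of each age in black and the replicate number shown by the symbol. Ltbp1 and Tgfb3 lay higher and Tgfbr1 lower on all 3 day 7 arrays, while Tgfb1 was level and Ltbp2 overlapped through day 7 replicate 3 and day 1 replicate 3.

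Among the ligands, Tgfb3 had higher values on day 7 than on day 1, whereas those of Tgfb1 and Tgfb2 overlapped. Tgfb1, the ligand best known from wound healing and fibrosis, read 39.9, 44.7 and 43.6 on day 7 (replicates 1, 2 and 3), against 40.6, 45.2 and 43.1 on day 1. The values of both ages fill the same narrow range. Its mean was 42.7 ± 2.52 on day 7 and 43.0 ± 2.34 on day 1 (SD, n = 3 each), and the log2 change of -0.01 had a 95% interval from -0.25 to 0.24 (limma adjusted p = 0.975). The interval corresponds to a ratio of day 7 over day 1 between 0.839 and 1.18.

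Tgfb2, a ligand expressed in many embryonic mesenchymal tissues, read 166.2, 137.9 and 111.1 on day 7, against 129.7, 166.2 and 133.2 on day 1. The day 7 arrays gave both the lowest value and one level with the day 1 maximum. The log2 change was -0.06 (95% interval -0.45 to 0.34; limma adjusted p = 0.878). Its other probe set, at 50.2, 54.7 and 32.9 on day 7 and 59.7, 49.0 and 37.8 on day 1, had a log2 change of -0.09 (limma adjusted p = 0.845).

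Tgfb3, the ligand known for scarless fetal repair and palate fusion, read 553, 457 and 549 on day 7, against 368, 440 and 304 on day 1. All day 7 arrays lay above all day 1 arrays, with the smallest gap between the arrays numbered 2. The mean was 520 ± 54.0 on day 7 and 371 ± 68.1 on day 1 (SD, n = 3 each). The log2 change was 0.50 (SE 0.16; 95% interval 0.13 to 0.86), a ratio of 1.41, and did not pass the threshold (limma adjusted p = 0.121). On day 1 the array with the lowest Tgfb3, replicate 3, was also the one with the lowest tendon list and the highest muscle list. With the muscle list median of each array as a covariate, the log2 change of Tgfb3 was 0.04 (limma adjusted p = 0.984). That covariate itself differed with age, so the part of tissue composition in the Tgfb3 values cannot be told apart from age.

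The receptors gave lower values of Tgfbr1 on day 7 and no separation of Tgfbr3. Tgfbr1, the type I receptor kinase, read 296, 286 and 254 on day 7, against 332, 371 and 415 on day 1. Every day 7 array lay below every day 1 array. The mean was 279 ± 21.8 on day 7 and 373 ± 41.3 on day 1 (SD, n = 3 each), with a log2 change of -0.41 (SE 0.12; 95% interval -0.70 to -0.13; limma adjusted p = 0.107). The other Tgfbr1 probe set read 5.81 to 7.12 on day 7, against 5.52 to 6.35 on day 1, near the negative control level, and so gives no check. Averaging it with the brighter one brought the log2 change to -0.16 (limma adjusted p = 0.387). After quantile normalization the log2 change of the brighter one was -0.30 (limma adjusted p = 0.196).

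Tgfbr3, the betaglycan co-receptor, read 29.4, 20.7 and 27.3 on day 7, against 22.4, 22.8 and 21.6 on day 1. Day 7 replicates 1 and 3 lay above the day 1 arrays and day 7 replicate 2 below them. The mean was 25.8 ± 4.54 on day 7 and 22.3 ± 0.595 on day 1 (SD, n = 3 each), and the log2 change was 0.19 (95% interval -0.14 to 0.52; limma adjusted p = 0.474). It was 0.093 without day 7 replicate 1 (limma adjusted p = 0.776) and 0.34 without day 7 replicate 2 (limma adjusted p = 0.163). The other Tgfbr3 probe set had a log2 change of 0.14 (limma adjusted p = 0.581). The Schwann cell and nerve, adipocyte, endothelial and epidermal lists were likewise lowest on day 7 replicate 2 among the day 7 arrays. The centred medians of the Schwann cell and nerve list were 0.61, -0.69 and 0.96 on day 7 (replicates 1, 2 and 3), against -0.60, -0.21 and -0.49 on day 1. Over the list's 10 measured genes the summed intensity ran from 2339 to 9082 on day 7 and from 1978 to 2388 on day 1. The endothelial centred medians were 0.16, -0.03 and 0.17 on day 7, against 0.03, -0.02 and -0.36 on day 1. The part of these lists in the Tgfbr3 values was not tested.

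**Figure D2:**
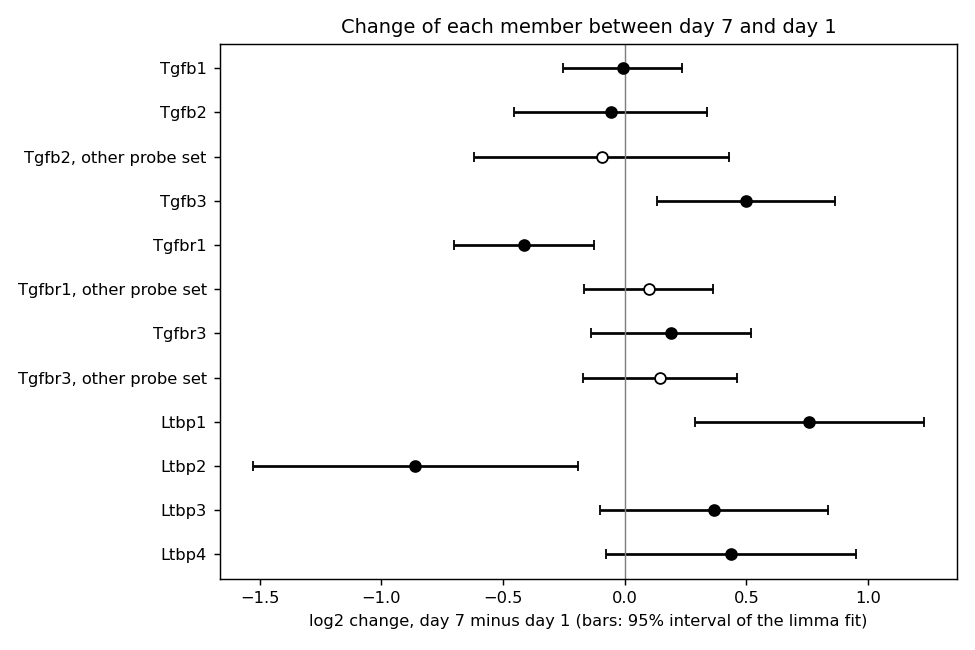
Log2 change of each probe set of the members, day 7 minus day 1, with its unadjusted 95% interval from the limma fit, where filled points are the probe sets that represent the gene and open points the others. The intervals of Tgfb3 and Ltbp1 lie above 0, and those of Ltbp2 and the filled Tgfbr1 point below 0. All other intervals include 0, that of the open Tgfbr1 point among them.

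The latent binding proteins differed most among themselves. Ltbp1, the binding protein that targets latent TGF-beta to fibronectin and fibrillin in the matrix, read 291, 186 and 206 on day 7, against 129, 162 and 109 on day 1. All day 7 arrays lay above all day 1 arrays. The mean was 228 ± 55.8 on day 7 and 133 ± 26.5 on day 1 (SD, n = 3 each). The log2 change of 0.76 (SE 0.20; 95% interval 0.29 to 1.23), a ratio of 1.69, had the smallest p of the members but did not pass (limma adjusted p = 0.0834). It passed with array weights (limma adjusted p = 0.0437), the one of the 17 alternatives in which any member did.

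Ltbp2, the microfibril-associated relative that does not bind latent TGF-beta, read 79.2, 79.1 and 113 on day 7, against 181, 231 and 103 on day 1. Day 7 replicates 1 and 2 lay below all day 1 arrays, and day 7 replicate 3 lay above day 1 replicate 3. The mean was 90.4 ± 19.5 on day 7 and 172 ± 64.5 on day 1 (SD, n = 3 each). The log2 change was -0.86 (SE 0.29; 95% interval -1.53 to -0.19; limma adjusted p = 0.136). Without day 1 replicate 3, it was -1.19 (limma adjusted p = 0.0565).

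Ltbp3, a binding protein known for its role in bone growth and tooth enamel, read 688, 671 and 584 on day 7, against 516, 658 and 370 on day 1. The ages overlapped through day 1 replicate 2, and the log2 change was 0.37 (95% interval -0.10 to 0.83; limma adjusted p = 0.334). Ltbp4, which also guides elastic fibre assembly, read 1159.6, 959 and 748 on day 7, against 732, 872 and 525 on day 1. Here too the ages overlapped through day 1 replicate 2, and the log2 change was 0.44 (95% interval -0.08 to 0.95; limma adjusted p = 0.296). Without day 1 replicate 3, the log2 changes were 0.15 for Ltbp3 and 0.24 for Ltbp4. That of Ltbp3 was 0.56 without day 1 replicate 2, and that of Ltbp4 was 0.29 without day 7 replicate 1.

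The contrast of Ltbp2 with the other binding proteins was measured within each array, as the difference of the log2 values of a pair of genes. This removes a shift that both genes share. Over the mean of the 6 arrays, Ltbp1 minus Ltbp2 stood at 1.36, 0.72 and 0.35 on day 7 (replicates 1, 2 and 3), against -0.997, -1.01 and -0.42 on day 1. The ages did not overlap, and the difference was 1.62 higher on day 7 on the log2 scale. Ltbp2 minus Ltbp4 stood at -1.12, -0.85 and 0.02 on day 7, against 0.73, 0.82 and 0.39 on day 1, a change of -1.30. Ltbp2 minus Ltbp3 changed by -1.23, also without overlap. Ltbp3 minus Ltbp4 changed by -0.07, and the ages overlapped. Its values spread more on day 7, from -0.25 to 0.15, than on day 1, from 0.001 to 0.10.

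In all, 10 pairs were compared within the ligands, the receptors and the binding proteins, and 6 did not overlap between the ages: the 3 pairs of Ltbp2 with another binding protein, Tgfb3 with each other ligand, and Tgfbr1 with Tgfbr3. Over all pairs of genes on the array, 34.2% did not overlap. Tgfb1 minus Tgfb3 changed by -0.51, Tgfb2 minus Tgfb3 by -0.55 and Tgfbr1 minus Tgfbr3 by -0.60. With 3 arrays of each age, the exact permutation test (two-sided) cannot give a p below 0.1, which each of these 6 pairs reached (0.167 adjusted over the 10 pairs). The pairs share genes and are not independent.

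On day 1, replicate 2 had the highest and replicate 3 the lowest value of Tgfb3, Tgfbr3, Ltbp1, Ltbp2, Ltbp3 and Ltbp4. This did not hold for Tgfb1, Tgfb2 and Tgfbr1, and the day 1 values of Tgfbr3 lay close together. On day 7 the genes with this order on day 1 had no common order. Tgfb3, Tgfbr3 and Ltbp1 were then lowest on replicate 2, Ltbp3 and Ltbp4 were lowest on replicate 3, and Ltbp2 was highest on replicate 3. The centred median of the tendon list ran the same way on the day 1 arrays, at -0.16, 0.08 and -0.58 on replicates 1, 2 and 3, and that of the skeletal muscle list the other way, at 0.48, 0.20 and 0.61. Tgfbr1 was highest on day 1 replicate 3. On day 7 the centred medians were 0.42, 0.15 and 0.11 for tendon, against -0.50, -0.008 and -0.82 for muscle. With the tendon list median as a covariate, the log2 changes were 0.30 for Ltbp1, 0.18 for Tgfb3, -0.35 for Tgfbr1 and -1.39 for Ltbp2 (limma adjusted p = 0.599, 0.717, 0.525 and 0.247). Ltbp3 and Ltbp4 then had log2 changes of -0.12 and -0.10, below 0 where they had been above it, and Tgfb2 had one of -0.34. With the muscle list median as a covariate, the log2 changes were 0.33 for Ltbp1, -0.24 for Tgfbr1 and -1.72 for Ltbp2 (limma adjusted p = 0.873, 0.850 and 0.421), and 0.18 for Ltbp3. Tgfbr3 stood at -0.19 with the muscle list and 0.075 with the tendon list. Both lists differed with age, so their part in these values cannot be told apart from age. Without day 1 replicate 1, the array with the epidermal genes, the log2 changes of Ltbp1, Tgfb3, Tgfbr1 and Ltbp2 were 0.74, 0.50, -0.49 and -0.78.

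**Figure D3:**
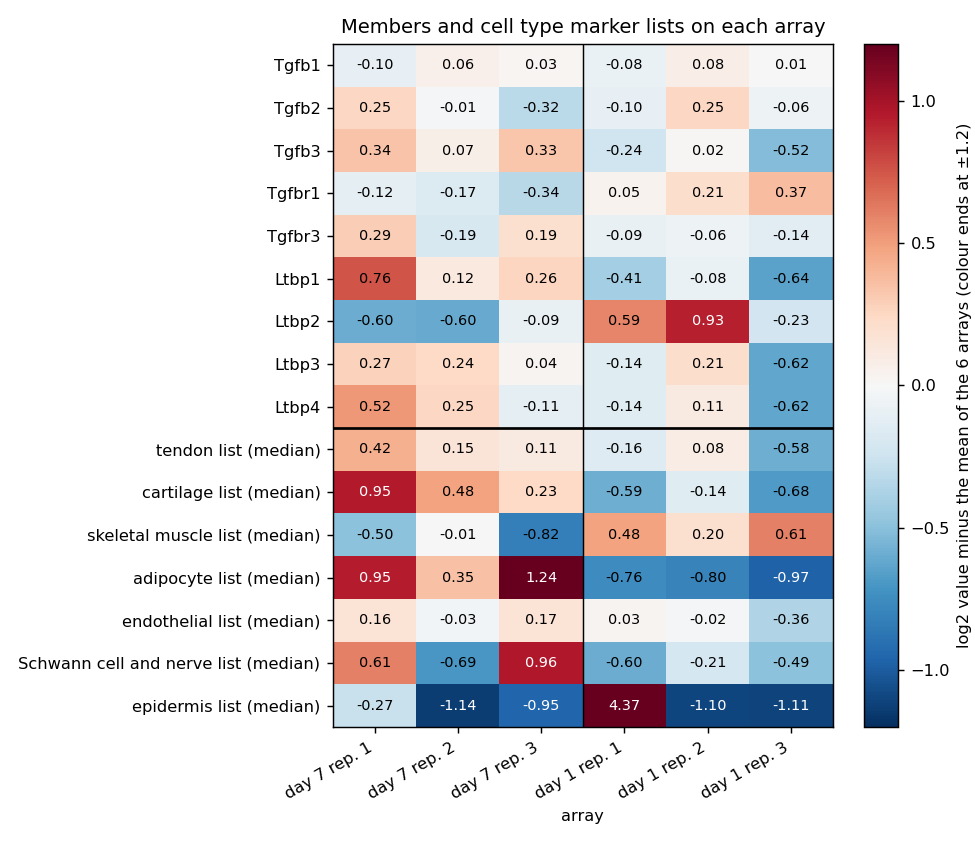
Log2 value of each measured member on each array, minus its mean over the 6 arrays, above the median of the same quantity for 7 marker lists (red high, blue low, the number in each cell). Day 1 replicate 3 is low for Tgfb3 and the binding proteins and for the tendon list (-0.58), and the epidermis list stands out on day 1 replicate 1 at 4.37.

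The genes whose centred profiles over the 6 arrays were nearest to the 3 most variable members were Tango6, Fbn2 and Uhrf2 for Ltbp2, Daam2, Tmem140 and Fads1 for Ltbp1, and Tmem119, Tbc1d12 and Mertk for Ltbp4. They were ranked among 9606 genes brighter than the median probe set, by the root mean square difference of log2 values. That difference was 0.158 to 0.192 for the genes near Ltbp2, 0.0838 to 0.0905 for those near Ltbp1 and 0.0492 to 0.0537 for those near Ltbp4. Fbn2 encodes fibrillin-2, the microfibril protein that predominates in fetal tissue. It read 511, 588 and 587 on day 7, against 984, 1375 and 657 on day 1, all day 7 arrays below all day 1 arrays. All 9 genes were chosen for their likeness to a member on the same 6 arrays, so their differences between the ages are a description with no test.

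The rest of the pathway was described with 5 lists. Together they held 80 measured genes, of which 1 rose (beside 1.93% of all genes) and 2 fell (beside 3.15% of all genes), with a median log2 change of 0.05. At an unadjusted p under 0.05, 12 were higher (beside 10.6% of all genes) and 11 lower (beside 17.0% of all genes). None of 19 SMAD signalling genes passed, with a median of -0.06. The lowest adjusted p-values there were those of the SMAD-binding repressors Tgif2, with a log2 change of -0.49 (limma adjusted p = 0.0648), and Tgif1, with one of -0.34 (0.264; -0.20 without day 7 replicate 3), and of the receptor-associated protein Tgfbrap1, with one of 0.19 (0.297). Smad2, Smad3 and Smad4, the signal transducers themselves, named after their values were seen, had log2 changes of 0.04, 0.17 and -0.04 (limma adjusted p = 0.873, 0.485 and 0.865), and that of Smad4 turned to 0.061 after quantile normalization.

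None of 6 co-receptors and related receptors passed, with a median of -0.03. Acvr1c, the nodal and activin receptor ALK7, averaged 12.5 ± 2.89 on day 7 and 6.99 ± 0.859 on day 1 (SD, n = 3 each; limma adjusted p = 0.0607). The activin receptor Acvr2b averaged 16.9 ± 3.64 on day 7 and 28.5 ± 5.42 on day 1 (0.0732), and Acvr1, the receptor ALK2, had a log2 change of -0.19 (0.363), which was -0.12 without day 7 replicate 3, -0.081 after quantile normalization and -0.010 with the mean of its probe sets. Acvr1c read 7.02, 7.83 and 6.11 on day 1, near the negative control level of 3.74 to 4.76. It passed without day 7 replicate 2 (limma adjusted p = 0.0341). The adipocyte list, in which day 7 replicate 2 was likewise the lowest of its age, stood beside Acvr1c at centred medians of 0.95, 0.35 and 1.24 on day 7 and -0.76, -0.80 and -0.97 on day 1. Its part in the Acvr1c values was not tested.

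Of 24 genes of latent complex storage and release, Dcn rose and Itgb6 fell, with a median of 0.10. Decorin, Dcn, a small proteoglycan that binds collagen and can bind TGF-beta, was 1.73-fold higher on day 7 (limma adjusted p = 0.0277). Itgb6, the beta subunit of an epithelial integrin that frees TGF-beta from its latent complex, read 27.1, 45.2 and 28.2 on day 7, against 78.4, 61.7 and 130 on day 1. All day 7 arrays lay below all day 1 arrays, and Itgb6 was 2.58-fold lower on day 7 (limma adjusted p = 0.0485). The 6 epidermal genes summed to 5621 on day 1 replicate 1, where Itgb6 read 78.4, and to 147 on day 1 replicate 3, where it read 130. Their part in the Itgb6 values was not tested. The muscle list was highest on day 1 replicate 3. With the muscle list median as a covariate the log2 change of Itgb6 was -0.34 (limma adjusted p = 0.873), against -1.37 without it. That list differed with age, so its part in the Itgb6 values cannot be told apart from age.

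Among 28 genes that TGF-beta is known to induce in various cells none passed, with a median of 0.13. Tgfbi, a secreted matrix protein named for its induction by TGF-beta, averaged 3325 ± 214 on day 7 and 1701 ± 639 on day 1 (SD, n = 3 each; limma adjusted p = 0.0657). Cdkn1a, the cell cycle inhibitor p21, averaged 381 ± 146 on day 7 and 845 ± 237 on day 1 (0.0768). Cnn1, the smooth muscle calponin, had a log2 change of 0.56 (0.0839). It read 12.1, 11.1 and 11.8 on day 7, against 9.61, 6.29 and 7.25 on day 1, below the array medians. Tagln and Acta2, brighter smooth muscle genes of this list named after their values were seen, had log2 changes of -0.62 and -0.44 (limma adjusted p = 0.0982 and 0.197). The log2 change of Cdkn1a was -1.17, and with the muscle list median as a covariate it turned to 0.13 (limma adjusted p = 0.934). Tgfbi passed without day 1 replicate 2 (limma adjusted p = 0.0310) and Cdkn1a without day 7 replicate 2 (limma adjusted p = 0.0450). In the activin and myostatin branch, Inha fell, as 1 of 7 genes, with a median of 0.08. Inha, the alpha subunit of inhibin, read 31.0, 32.8 and 25.6 on day 7, against 52.9, 62.8 and 79.9 on day 1, and was 2.13-fold lower on day 7 (limma adjusted p = 0.0238). Inhba, the activin A subunit, named after its values were seen, had a log2 change of 1.12 without passing (limma adjusted p = 0.0941), and passed without day 1 replicate 2 (limma adjusted p = 0.0384). Inhbb, the activin B subunit, likewise named after its values were seen, read 12.6, 12.6 and 12.1 on day 7, against 16.5, 17.4 and 18.1 on day 1. Its log2 change was -0.45 (limma adjusted p = 0.0526), and it passed in 5 of 16 alternatives.

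The 3 calls in these lists depended on single arrays. That of Dcn was kept without day 1 replicate 2 and lost without each of the other arrays (limma adjusted p between 0.0515 and 0.117). Those of Itgb6 and Inha were kept without day 7 replicate 2 or day 1 replicate 2. They were lost without each of the other 4 arrays, with adjusted p-values up to 0.170 for Itgb6 and up to 0.104 for Inha. Itgb6 also missed the threshold after quantile normalization (limma adjusted p = 0.0545), with a pseudocount of 16 (0.0958) and with the mean of its probe sets (0.0506), and Inha without both arrays numbered 2 (0.05003). All 3 calls were lost with the replicate number as a block and with either list median as a covariate. Of all genes, the block left 25 higher and 8 lower, and either covariate at most 1 each way. The loss in these fits is therefore not particular to these 3 genes. Dcn is also itself a gene of the tendon list, so that covariate is built in part from its own values.

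**Figure D4:**
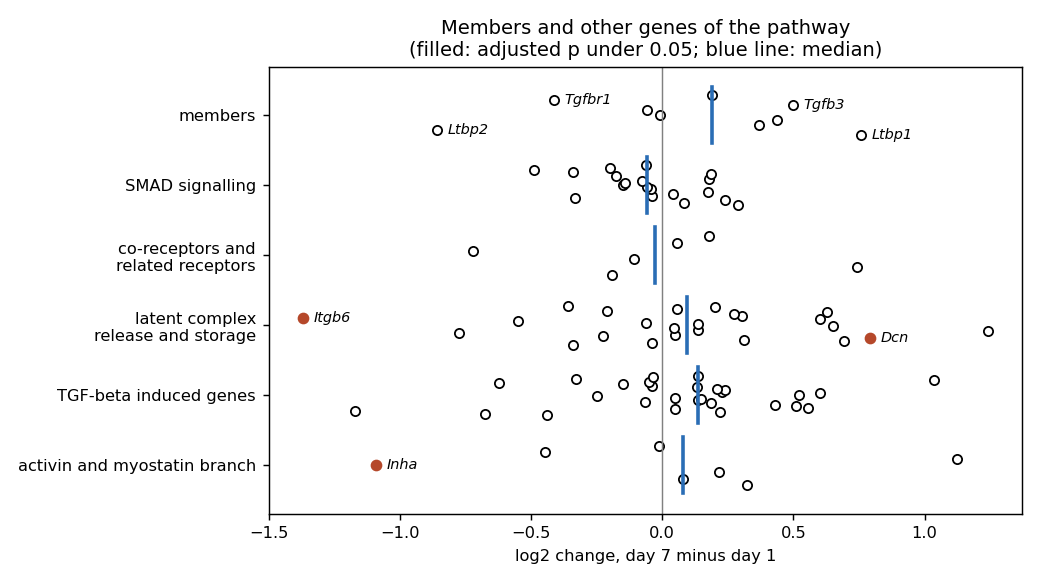
Log2 change, day 7 minus day 1, of each measured member (top) and of the genes of 5 pathway lists, 1 point per gene spread vertically only for legibility, with filled red points for genes that passed the test and a blue line at each group's median. Dcn (0.79), Itgb6 (-1.37) and Inha (-1.09) are the filled points, and Ltbp1 and Ltbp2 mark the ends of the members' range.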

How the data were processed

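RNA of 6 pools of rat Achilles tendons was hybridized to a rat Affymetrix expression array, per the labels' protocols. The authors deposited a table with a linear intensity for every probe set on every array. MAS5 and RMA appear in the submitters' processing notes, and which of them made the values is not given in the sources used here. Of 31099 probe sets, 57 controls were left out. The other 31042 were tested on log2(intensity + 1) with limma 3.58.1 (lmFit and eBayes, R 4.3.3), day 7 against day 1, as a two-sided test with p-values adjusted over all of them (Benjamini-Hochberg) and a threshold of 0.05. The platform annotation gave 20826 probe sets 1 gene symbol, 436 several and 9780 none. All members and lists were chosen with earlier results of these data known. Named genes were all members and, of each pathway list, the genes called or otherwise the 3 with the smallest adjusted p. The nearest profiles of the 3 most variable members were also named. Marker lists covered tendon, skeletal muscle, adipocytes, cartilage, endothelium, macrophages, Schwann cells and nerve, smooth muscle and pericytes, and epidermis. The median log2 changes of the lists not given with the results were 0.22 for endothelium, -0.27 for macrophages and -0.18 for smooth muscle and pericytes. The code was tested on simulated log2 values, with added changes larger than those of the members. Medians of the arrays lay between 20.5 and 21.1, and the number of arrays limits the precision. The upper quartiles were 89.9, 91.8 and 84.1 on day 7 (replicates 1, 2 and 3), against 95.9, 94.3 and 95.9 on day 1. The alternatives tried were a block for the replicate number, array weights, a robust fit with an intensity trend, averaging of all probe sets of a gene, brighter probe sets only, a pseudocount of 16, median centring, quantile normalization and leaving out each array. A fit without both arrays numbered 2 and fits with the muscle or tendon list median as a covariate were added after seeing the data. Same-numbered arrays did not deviate together (correlations of 0.05, -0.25 and -0.14), so the numbers were not used as pairs.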

Additional observations from a re-analysis of the deposited data

How the results depend on the processing

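The count of members called was 0 higher and 0 lower in each of the 17 alternatives, except with array weights, where 1 was higher (Ltbp1). Ltbp1, Tgfb3, Tgfbr1 and Ltbp2 kept their direction in all 17. Without 1 array, the log2 change lay between 0.57 and 0.91 for Ltbp1, between 0.36 and 0.63 for Tgfb3, between -0.49 and -0.33 for Tgfbr1, between -1.19 and -0.61 for Ltbp2 and between 0.093 and 0.34 for Tgfbr3. In the 10 alternatives tried for pairs, the change of the within-array difference kept its sign for each of the 6 pairs without overlap. Ltbp1 minus Ltbp2 lay between 1.34 and 1.85 in them. Pairs were not compared with array weights or with either covariate, which also alter the changes of single genes. With the muscle covariate these were -0.0035 for Tgfb1, -0.0034 for Tgfb2 and 0.037 for Tgfb3, and -0.24 for Tgfbr1 and -0.19 for Tgfbr3. The ligands and the receptors thus lay close together there, unlike Ltbp1 at 0.33 and Ltbp2 at -1.72. Signs turned for members whose change lay near 0 and for covariate fits. Tgfb1 stood at 0.063 after quantile normalization, 0.0031 with array weights, 0.0092 with the tendon covariate and between -0.048 and 0.039 without 1 array. Tgfb2 stood at 0.057 after quantile normalization, 0.054 with array weights, 0.048 without both arrays numbered 2 and between -0.20 and 0.090 without 1 array. The muscle covariate turned Tgfbr3 to -0.19 and Cdkn1a to 0.13, and the tendon covariate turned Ltbp3 to -0.12, Ltbp4 to -0.10, Tmem119 to -0.028 and Tbc1d12 to -0.036. Smad2 stood at -0.00091 with array weights, -0.027 and -0.061 with the muscle and tendon covariates, and between -0.020 and 0.11 without 1 array. Smad3 stood at -0.0088 with the tendon covariate. Smad4 stood at 0.061 after quantile normalization, 0.0078 with array weights, 0.11 with the muscle covariate and between -0.097 and 0.043 without 1 array. In the pathway lists the count of higher genes, 1, was 2 with brighter probe sets only, 3 with an intensity trend, 5 with array weights, 4 without both arrays numbered 2, and 0 to 7 without 1 array. The count of lower genes, 2, was 6 with array weights and 0 to 3 without 1 array. Both counts were 0 with either covariate and with the replicate number as a block. The block gave an adjusted p of 0.157 for Ltbp1 and left no member called; over all genes 25 were then higher and 8 lower, against 274 and 448 without it. A pseudocount of 16 (182 higher), array weights (538 and 897) and both covariates (at most 1 each way) also moved those counts by over 1.5 times. So did leaving out any 1 array other than day 7 replicate 2 or day 1 replicate 2 (4 to 87 and 0 to 107). Without day 7 replicate 2 the counts were 200 and 377, and without day 1 replicate 2 they were 271 and 382. Of all genes called, 38.0% were higher in the fit as reported, and 52.4% once the arrays were quantile normalized. The causes were not tested.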
